A study of Mus musculus and synthetic construct with 21 samples.

Results

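The oligos described here carry 4 motif names, hnf4, couptf, nr2f2 and tr4, in 2 pools of a massively parallel reporter assay (MPRA). In pool 5, which tested native enhancer elements with 1 motif altered at a time, the 4 names account for 330 altered elements at 141 of 245 sites, out of 1803 altered elements. In pool 6, which placed motifs into fixed stretches (slots) of 15 sites, they account for 380 of 3703 inserts. Members were chosen by the motif name in the element name, 710 oligos in all among 6694 named elements of both pools, with 172 more control elements of the same names in pool 5. All had at least 50 plasmid counts. The least covered members had 73 counts (couptf, pool 5) and 66 counts (hnf4, pool 6), and the elements left out, at 0 and 3 counts, were inserts of the names fos and myc.

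HNF4, the COUP-TFs and TR4 (NR2C2) are nuclear receptors, DNA-binding proteins with zinc fingers that read short half-sites related to AGGTCA. Like PPARγ with its partner RXR, they can bind DR1, a direct repeat of half-sites with 1 base between them. HNF4 is best known as a regulator of liver, gut and pancreas genes and binds DR1 as a homodimer. The COUP-TFs, of which Nr2f2 encodes COUP-TFII, often act as repressors and can compete for DR1 elements. TR4 is an orphan receptor with a role in lipid metabolism. The names couptf and nr2f2 thus stand for motif models of the same receptor family, and all 4 names resemble ppar, pparg and rxr, the names of the PPARγ and RXR models. Which protein bound any element was not measured in these pools.

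The cells were 3T3-L1, a mouse pre-adipocyte line that turns into adipocytes after hormonal induction, here with insulin (1.7 µM), dexamethasone (1 µM) and IBMX (0.5 mM). RNA was taken 16 h after transfection. Each pool had 1 RNA library and 1 plasmid library, with no treatment or genotype contrast, so the comparison is between designed elements within a pool. RNA totals were 15258069 reads in pool 5 and 14198899 in pool 6, and plasmid totals 16952662 and 19193436. Among the members the median plasmid count was 4738.5 in pool 5 and 5555 in pool 6, over a median of 132.5 and 150 barcodes. Activity is the log2 ratio of an element's share of RNA counts to its share of plasmid counts, so 0 is the pool's overall ratio. No library had a replicate, and every test ran over sites within 1 pair of libraries. The p-values cover the spread between sites only, and the exact binomial 95% intervals of single elements cover counting error only.

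Every element name carries the 16 bases of a native PPAR motif. The sequences of the sites on which the results turn are listed as the element names give them, with the half-sites of that DR1 (bases 4 to 9 and 11 to 16) in capitals. At the first 4 sites several members had some of their lowest well-covered activities relative to native, and inserts at the last 3 gave the extremes of pool 6.
Site 377: gctGGGCCAaGGGTAA
Site 125: tctGGCCCAaAAGGCA
Site 560: ggcAGGAGAaAGGGCA
Site 21: cccAGGGGAgAGGTGA
Site 223: cagAGGCCAaAGGGCA
Site 142: tctGGGCAAaAGGGTA
Site 129: agtAGGGGAaAGAGTA
In mm9 these lie at chr5:30498798-30498813 (plus strand), chr8:90491378-90491393 (plus), chr19:6546230-6546245 (plus), chr11:54864814-54864829 (minus), chr8:129376258-129376273 (minus), chr3:30881176-30881191 (plus) and chr5:51987229-51987244 (minus). Without an annotation of that build, no gene is given for them. Against AGGTCA, the half-sites of site 223 had 1 mismatch each, the closest of these 7, and those of site 125 had 3 and 2. The position of this motif within the element is not given in the files. No altered instance in pool 5 started between bases 60 and 76 of the element, and no slot of pool 6 covered bases 68 to 76. That stretch is shorter than the 16 bases of the motif, so whether members reached into the motif was not determined. The bases written into altered or filled stretches were not in the files used here.

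Altering a native hnf4, couptf, nr2f2 or tr4 match lowered activity in pool 5. Averaged within sites, the altered element stood below the native (wt) element by a mean log2 difference of -1.02 ± 0.95 (SD, n = 98 sites) for hnf4, which is 0.493 of native activity. The difference was -0.86 ± 0.78 (SD, n = 106) for couptf, -0.87 ± 0.68 (SD, n = 30) for nr2f2 and -0.72 ± 0.79 (SD, n = 52) for tr4, the smallest of the 4 at 0.607 of native activity. Activity was lower than native at 90 of 98, 96 of 106, 26 of 30 and 43 of 52 sites. Each of the 4 gave p = 1e-05, the smallest that 100000 sign flips can give, and an adjusted p of 2.06e-05 over 37 motif names (2-sided permutation test). This fall was shared by most names: 91.9% of the names tested were lower and 0% were higher, with a median over names of -0.86. The 4 members ranked 10th (hnf4), 19th (nr2f2), 23rd (couptf) and 28th (tr4) from the lowest. The reference names lay in the same range, at -0.97 for ppar, -0.96 for pparg and -0.89 for rxr. Of the other 9 nuclear receptor names tested (dax1, err1, err2, err3, lxr, rar and the 3 reference names), all 9 fell.

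Elements with a control label also stood below native. Pool 5 holds elements named after a motif with the suffix ctrl, whose design the labels do not describe. Over all names these had a median difference of -0.20 from native. At sites holding both kinds, hnf4 altered elements were lower than hnf4 ctrl by -0.56 ± 1.31 (SD, n = 26 sites), lower at 18 of 26, and couptf by -0.42 ± 1.03 (SD, n = 29), lower at 19 of 29. Neither passed the adjustment over 11 names (permutation p = 0.0366 and 0.0352, adjusted p = 0.0672 for both). Of the names tested, 9.09% were lower by this comparison, namely ppar at -0.69, and 0% were higher. Only 4 sites held both kinds for nr2f2, all lower, with a mean of -0.51, and 3 for tr4, all higher, with a mean of 0.64, so these were not tested.

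Because so few sites were shared, all altered sites of a name were also compared with all its ctrl sites, a comparison added after the data were seen. Sites holding both kinds entered both sets, and their pairing was not used. By that measure hnf4 was lower than its ctrl elements by 0.54 on the log2 scale, with means of -1.02 and -0.48 ± 0.99 (SD, n = 60 ctrl sites). The couptf difference was -0.40, the tr4 difference -0.49 and the nr2f2 difference -0.40. Label permutations gave adjusted p-values over 35 names of 0.00223 for hnf4, 0.00427 for couptf, 0.0181 for tr4 and 0.146 for nr2f2, so hnf4, couptf and tr4 passed and nr2f2, with 30 and 17 sites, did not. With sites holding both kinds left out, the differences were -0.58 for hnf4, -0.40 for couptf, -0.35 for nr2f2 and -0.59 for tr4, and the same 3 names passed. In this comparison 51.4% of names were lower and 0% higher. With medians in place of means, couptf (-0.27, adjusted p = 0.0766, permutation test) and tr4 (-0.38, adjusted p = 0.126) no longer passed, while nr2f2 did (-0.77, adjusted p = 0.0387). Without instances that share their counts with another name, tr4 also missed the threshold (-0.44, adjusted p = 0.0541, permutation test).

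The 4 names did not separate from each other when altered at the same site. The mean difference couptf minus hnf4 was -0.02 over 77 sites, with an interval of -0.13 to 0.09 from inverting the sign-flip test at 95%. The couptf value was lower at 36 sites and higher at 34. The rest, where both names had identical counts, were equal by design and entered the mean and interval. For couptf minus nr2f2 the mean difference was 0.09 over 26 sites (interval -0.05 to 0.22). The largest difference within the 4 was hnf4 minus tr4, -0.35 over 33 sites (interval -0.67 to -0.04, permutation p = 0.0251), with an adjusted p of 0.338 over 292 pairs. It leaned on site 73, where the hnf4 element had 1 RNA count, and without elements under 10 RNA counts it was -0.21 over 32 sites (adjusted p = 0.374, permutation test). For nr2f2 minus ppar it was -0.25 over 23 sites (interval -0.46 to -0.04, adjusted p = 0.338, permutation test). Differences of the members from ppar, pparg and rxr otherwise lay between -0.12 and 0.10. Of all pairs of names, 2.05% passed, none of them a pair of a member with another of these 7 names.

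The altered stretches of the 4 names often coincided. Of the 118 hnf4 instances, 80 started within 5 bases of a couptf instance of the same site, and 84 within 5 bases of any other member. For nr2f2 the latter count was 28 of 31, for couptf 90 of 124, and for tr4 34 of 57. Counts equal to those of another name, which mark 1 oligo filed under several names, were found for 44 couptf, 15 hnf4 and 11 nr2f2 instances and for 0 of 57 tr4 instances. All 4 members were altered at 14 sites, and at least 2 at 93 sites.

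Instances close to a match to ppar, pparg or rxr had lower medians than those apart from one, a description without a test. Starting within 5 bases of such an instance were 85 of 118 hnf4, 74 of 124 couptf, 25 of 31 nr2f2 and 20 of 57 tr4 instances. Their median difference from native was -1.00 for hnf4, -1.00 for couptf, -1.00 for nr2f2 and -0.80 for tr4. Instances apart from any reference match had medians of -0.48, -0.35, -0.01 and -0.27. The 6 nr2f2 instances standing apart ranged from -0.60 to 0.22, with 3 of them below native, whereas 24 of the 25 others were. Over all other names the medians were -0.94 for 252 instances near a reference match and -0.55 for 825 apart, so the same order held outside the 4 names. Native activity moved with this split for hnf4, couptf and tr4. The median wt activity was -0.02 near and -0.22 apart for hnf4, -0.26 and -0.59 for couptf, and -0.17 and -0.48 for tr4. For nr2f2 the order was the reverse, at -0.60 near and -0.49 apart, and over all other names the medians were -0.26 and -0.30. The part of native activity in the result was not tested. With a tolerance of 10 bases the medians were -1.00 against -0.38 for hnf4 and -0.74 against -0.21 for tr4. With identical starts only, 20 hnf4 instances were near and the medians were -0.92 against -0.78, and the order for tr4, with 2 such instances, turned to -0.44 against -0.46.

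Median losses were deeper where the native element was more active. At sites with a wt activity above 0.15 the median difference was -1.58 for hnf4, -1.43 for couptf, -1.74 for nr2f2 and -1.20 for tr4. In the remaining sites it was -0.60, -0.54, -0.73 and -0.22. Their ctrl elements followed the same order, with -0.69 against -0.09 for hnf4, -0.91 against -0.18 for couptf, -0.60 against -0.08 for nr2f2 and -0.39 against -0.05 for tr4. The wt value enters both the split and the difference, so these medians are descriptive. Upstream and downstream of bases 68 to 76, the medians were -0.82 and -0.71 for hnf4, -0.74 and -0.64 for couptf, -0.96 and -0.62 for nr2f2, and -0.63 and -0.37 for tr4, against -0.82 and -0.61 over all names.

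Single elements were called low when they fell below the 5th percentile of all ctrl differences from native (-1.75) and high above the 95th (0.70). By this rule 13.6% of all altered elements were low and 1.72% high. Among the members, 22 of 118 hnf4, 20 of 124 couptf, 3 of 31 nr2f2 and 5 of 57 tr4 elements were low, and 0 of 330 were high. For comparison, 15 of 102 ppar, 29 of 147 pparg and 26 of 147 rxr elements were low.

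Site 377 showed the deepest well-covered loss of hnf4 and nr2f2, and all 4 members fell there together. Its native element had an activity of 1.98. With couptf altered at base 3 it had 2076 RNA and 5459 plasmid counts and an activity of -1.24, with hnf4 at base 5 it was -1.48 (1774 RNA and 5519 plasmid counts), with nr2f2 at base 9 it was -0.95 and with tr4 at base 13 it was -0.53. The differences from native were -3.22, -3.47, -2.93 and -2.51, and ppar, pparg and rxr, altered at base 4, gave differences of -3.26, -3.18 and -3.36. Member matches on the other side of the element stayed closer to native. Altering nr2f2 at base 87 left an activity of 1.95, hnf4 at base 129 left 1.67 and couptf at base 132 left 1.75, differences of -0.03, -0.32 and -0.23. Between these stretches, alterations of ap1 at base 53, jun at base 57 and fra1 at base 58 gave smaller differences of -1.08, -0.93 and -1.59. Altering atf3 at base 88 and ppar at base 91 gave -0.82 and -0.93. By contrast, altering lxr or rxr at base 84 raised activity, with differences of 1.02 and 0.71. The 3 ctrl elements of this site, of the names ctf1, foxo4 and rxr, also had low activities, at -0.93, -1.12 and -1.12. Their differences from native, -2.91, -3.10 and -3.10, lay within the range of the 4 members.

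At site 125 the low member elements lay in the downstream part. Against a native activity of 2.39, altering couptf at base 78 gave -0.97 (2459 RNA and 5343 plasmid counts), hnf4 at base 80 gave -0.94 and tr4 at base 87 gave -0.82. The differences of -3.36 and -3.22 were the lowest of all couptf and tr4 instances. Matches further on were altered at lower cost. Altering hnf4 at base 118 and couptf at base 120 left activities of 1.19 and 1.12, differences from native of -1.21 and -1.27. The ctrl element of this site, of the name nf1, stayed near native, with an activity of 1.98.

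At site 560, singled out after its values were seen, the members' own ctrl elements were available. The native activity was 1.59. Altering hnf4 at base 49 gave -1.41 and couptf at base 52 gave -1.31, differences of -3.01 and -2.91. The hnf4 ctrl element had an activity of 2.39 and the couptf ctrl element of 2.24, both above native, and the tr4 ctrl element had the counts of the couptf one. The loss was not particular to these names, since alterations of ap1 at base 105 and nf1 at base 39 gave -1.87 and -1.26. Site 21 differed in its ctrl elements. Altering hnf4 at base 14, tr4 at base 23 and couptf at base 24 gave -1.13, -0.91 and -0.96 against a native 1.67. The hnf4 ctrl element was lower still, at -2.15 (1068 RNA and 5265 plasmid counts), and the lxr ctrl element was at -1.70. There too the loss was not particular to the members, with ap2 at base 86 and nf1 at base 93 at -1.00 and -1.67.

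Site 192 held hnf4 instances with opposite outcomes. The native activity was 1.19. Altering the match at base 8 gave -1.18, a difference of -2.37, while altering the one at base 22, the same oligo as couptf at base 22, gave 1.58, a difference of 0.38. The ctrl elements of this site, of the names foxp3 and rxr, were lower than either, with differences of -2.45 and -2.59. The other elements highest against native were of small size: hnf4 and couptf at base 93 of site 467 (1 shared oligo, 0.56), couptf at base 92 of site 739 (0.60) and at base 19 of site 437 (0.45), hnf4 at base 8 of site 281 (0.38), nr2f2 at base 130 of site 55 (0.22), base 123 of site 65 (0.19) and base 99 of site 677 (0.06), and tr4 at base 30 of site 539 (0.25) and base 41 of site 117 (0.18). The tr4 element at base 25 of site 323 kept one of the strongest activities among the members, 4.32 from 104693 RNA and 5806 plasmid counts, against a native 3.86.

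Some of the most extreme low values rested on thin counts. The hnf4 element at base 111 of site 73 had 1 RNA and 130 plasmid counts over 117 barcodes, an activity of -5.88 with an interval of -12.2 to -4.37, against a native 0.35. The couptf element at base 105 of site 87 had 33 RNA and 230 plasmid counts (-2.61, interval -3.22 to -2.12). In pool 5, 62 non-native elements had under 1000 plasmid counts, at a median of 3.52 plasmid counts per barcode against 37.98 in the rest, and their median activity was -1.47 against -0.91. Among them were 10 members, 8 of which were below the median of the rest. Without the elements under 1000 plasmid counts, the hnf4 difference from native was -0.97. The remaining low elements named by the rule of the lowest 3 were nr2f2 at base 31 of site 725 (-2.38, shared with another name) and at base 105 of site 30 (-1.99).

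Inserting the 4 motifs did not raise activity as inserting ppar or rxr did. In pool 6 each of 39 names was placed into 95 slots, which are 82 distinct windows of 7 to 29 bases, and an insert was compared with the mean of the other inserts of its slot. Averaged within the 15 sites, the difference was -0.19 ± 0.49 (SD, n = 15 sites) for hnf4, 0.07 ± 0.33 (SD, n = 15) for couptf, 0.05 ± 0.35 (SD, n = 15) for nr2f2 and -0.19 ± 0.29 (SD, n = 15) for tr4. Only tr4 passed among the 4, lower at 11 of 15 sites (exact sign-flip p = 0.0305, adjusted p = 0.0396 over 39 names). The adjusted p was 0.0917 for hnf4, 0.619 for couptf and 0.624 for nr2f2 by the same exact test. Of all names, 43.6% were lower than their slots and 33.3% higher, and of the 9 other nuclear receptor names 2 were lower and 3 higher. The tr4 call was close to the threshold: leaving out 1 site at a time gave adjusted p-values from 0.0125 to 0.0785 (exact test), and 10 of the 15 left it above 0.05, with differences from -0.23 to -0.15. Taking the median of the other inserts as the slot's level, tr4 was at -0.10 (adjusted p = 0.173, exact test) and couptf at 0.16 (adjusted p = 0.0429).

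The hnf4, couptf and nr2f2 means each leaned on 1 site. For hnf4 the lowest site was 152, with a single slot at -1.86 from 7 RNA and 66 plasmid counts, and without that site the mean was -0.073. The other sites lay between -0.38 and 0.18. For couptf the highest site was 142 at 1.16, and without it the mean was -0.0042. The other couptf sites lay between -0.24 and 0.36. The nr2f2 sites ranged from -0.67 (site 580) to 0.91 (site 152), and without site 152 the mean was -0.0082. That highest nr2f2 value came from a single slot with under 1000 plasmid counts, and 1 of the 3 slots of site 580 was thinly counted too. The tr4 sites ranged from -0.71 (site 138) to 0.37 (site 31).

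Against the wt element none of the 4 names passed the test over sites. The differences were -0.38 ± 0.83 (SD, n = 15) for hnf4, -0.13 ± 0.62 (SD, n = 15) for couptf, -0.15 ± 0.75 (SD, n = 15) for nr2f2 and -0.38 ± 0.80 (SD, n = 15) for tr4, with adjusted p-values of 0.181, 0.548, 0.548 and 0.161 (exact sign-flip test) and unadjusted values all above 0.05. Over all names 30.8% were lower than wt and 12.8% higher. With each slot counted as a unit, all 4 were lower than wt (adjusted p from 0.000195 for tr4 to 0.0448 for nr2f2, permutation test over 95 slots), although all slots of 1 site are set against the same wt element. Split by native level, which also enters the difference and makes the split descriptive, the medians differed. At the 4 sites with wt activity above 0, the median difference from wt over 31 slots was -1.57 for hnf4, -0.91 for couptf, -0.68 for nr2f2 and -1.49 for tr4. At the 11 others, over 64 slots, it was 0.10, 0.14, 0.26 and -0.07.

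Side by side in the same slots, every member fell below both ppar and rxr. The mean difference from ppar was -0.98 for hnf4 (interval -1.29 to -0.68), -0.72 for couptf (-0.98 to -0.47), -0.74 for nr2f2 (-1.06 to -0.41) and -0.97 for tr4 (-1.33 to -0.63). The differences from rxr were -0.97, -0.71, -0.73 and -0.96. The members hnf4, couptf and tr4 were lower than either reference at 15 of 15 sites and nr2f2 at 14 of 15, with adjusted p-values of 0.00115 or less over 741 pairs (exact sign-flip test). Of all pairs, 74.8% passed. The reference names themselves stood above their slots by 0.81 for ppar and 0.80 for rxr, higher at 15 of 15 sites. The name pparg did not (0.02), and of the members tr4 differed from it (-0.20, interval -0.37 to -0.02, adjusted p = 0.0448, exact test). With medians over sites, this pair and nr2f2 with ppar missed the threshold (adjusted p = 0.0516 for both, exact test). The difference from pparg was -0.20 for hnf4 (interval -0.45 to -0.01, adjusted p = 0.0633, exact test), and the others were 0.06 for couptf (-0.15 to 0.28) and 0.04 for nr2f2 (-0.15 to 0.24).

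Within the 4, no pair of inserts passed the adjustment. The differences were 0.26 for couptf minus hnf4 (interval -0.02 to 0.57, adjusted p = 0.0982, exact test) and 0.25 for couptf minus tr4 (0.01 to 0.51, adjusted p = 0.0589). For nr2f2 minus tr4 the value was 0.23 (-0.02 to 0.49) and for hnf4 minus nr2f2 -0.24 (-0.64 to 0.08). For couptf minus nr2f2, the names of the same receptor family, it was 0.02 (-0.22 to 0.26), and for hnf4 minus tr4 -0.01 (-0.30 to 0.25). The widest of these intervals allows a difference of 0.64.

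Similar means came with different patterns over slots. After the slot mean was subtracted, Pearson's r over 95 slots, which share sites and libraries, was 0.17 between hnf4 and couptf, 0.05 between couptf and nr2f2, -0.19 between hnf4 and nr2f2 and -0.03 between hnf4 and tr4. The names most like hnf4 were dax1 (0.35), lxr (0.30) and rar (0.29), all nuclear receptor names. Other receptor names ranked lower for hnf4: couptf 13th, pparg 16th (0.10), ppar 18th (0.08), rxr 20th (0.01), tr4 22nd and nr2f2 28th. The names most like couptf were jdp2 (0.27), jun (0.18) and hnf4 (0.17). Those for nr2f2 were fra1 (0.16), pparg (0.11) and foxp3 (0.11), and those for tr4 were slug (0.21), myc (0.20, over 94 slots) and sna (0.18). All are weak. There were 12 windows that carried more than 1 slot, so the same name in the same window was counted in separate elements. The SD within such sets was 0.26 over 468 sets of all names, and 0.22 for hnf4, 0.24 for couptf, 0.20 for nr2f2 and 0.26 for tr4. The spread of a member over slots, from 0.43 for hnf4 to 0.63 for nr2f2, was larger than this. Whether those elements hold identical bases is not stated in the files.

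The strongest window for tr4 was bases 34 to 50 of site 223, which was filled in 3 slots, named after couptf, lxr and rar. There tr4 had activities of 2.45 (20861 RNA and 5161 plasmid counts), 2.44 (22812 and 5696) and 2.02 (22225 and 7396), all above the native 1.11 and above slot means of 0.37, 0.27 and 0.41. It ranked 2nd, 1st and 3rd of 39 inserts. In the same 3 slots hnf4 had -0.42, -0.37 and -0.46, couptf -0.41, 0.31 and 0.50, and nr2f2 0.51, 0.60 and 0.48. In these slots ppar had 0.93 to 1.19 and rxr 0.76 to 1.31. Names outside the receptors came near tr4 or above it, with foxd1 at 2.47, bach1 at 2.25 and 2.48, and fra1 at 2.37. The window was picked for its high tr4 values, and its 3 slots are 1 stretch of 1 site, so the gap to other names was not tested. The tr4 gain did not extend to neighbouring windows: in bases 29 to 43 tr4 had -0.38, in 30 to 44 it had 0.24 and in 41 to 53 it had 0.80. At bases 115 to 129 of the same site it was among the lowest tr4 inserts, with an activity of -0.14 and a difference of -1.06 from its slot.

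For couptf the highest inserts were at site 142. In bases 5 to 17, a slot named after ap2, couptf gave an activity of 3.70 from 81262 RNA and 8463 plasmid counts, the highest of 39 inserts there, with rxr at 3.30, ppar at 3.29, hnf4 at 2.48, tr4 at 1.71 and nr2f2 at 0.86. The native element had 1.82 and the slot mean was 1.65. In bases 29 to 36, a slot named after fra1, couptf had 1.89, above its slot by 1.86 and next to fos (1.94), while hnf4 had -0.24 and tr4 -0.54. The next was at bases 19 to 32 of site 330, with an activity of 0.67 against a native -1.25. The lowest couptf inserts were in bases 34 to 50 of site 223 in the slot of couptf itself, bases 99 to 127 of site 129 and bases 51 to 65 of site 240, with differences of -0.86, -0.77 and -0.74 from their slots. The first was not repeated: in the lxr and rar slots of that window, couptf differed from its slots by -0.01 and 0.05.

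For nr2f2 the highest insert was in bases 41 to 51 of site 129, a slot named after err1, with an activity of 1.23 (9731 RNA and 5605 plasmid counts) against a native -0.98. It ranked 1st of 39, above dax1 (1.04) and ppar (0.87), while couptf, named for the same family, had -0.29. The next were bases 51 to 65 of site 138 (0.91, above its slot by 1.40) and bases 30 to 44 of site 223 (1.75, above its slot by 1.35). The lowest nr2f2 value was at bases 77 to 92 of site 223, -3.65 with an interval of -4.56 to -3.01, but from 16 RNA and 288 plasmid counts over 144 barcodes. Another low value, bases 122 to 135 of site 580, rested on 29 RNA and 258 plasmid counts (-2.68). A low value between these was well covered, with 1861 RNA and 4487 plasmid counts in bases 115 to 129 of site 223, where nr2f2 had -0.83 against a slot mean of 0.94.

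For hnf4 the highest inserts were of moderate size, with 0.21 in bases 3 to 9 and 0.24 in bases 30 to 43 of site 280, against a native -1.01, and 0.17 in bases 60 to 66 of site 407, above their slots by 0.94, 0.81 and 0.91. Its lowest inserts other than the thinly counted one at site 152 were both at site 223, in bases 33 to 40 (-1.00) and in 34 to 50 (-0.46), with differences of -1.18 and -0.93 from their slots. The first was in a slot named after fos, and the slot of the same window named after jun gave hnf4 -0.33, a difference of -0.55. The remaining low tr4 inserts were in bases 38 to 52 of site 182 (-0.48, slot mean 0.70) and bases 26 to 40 of site 142 (-0.97, slot mean 0.02). Inserts were called low or high beyond the 5th and 95th percentiles of all differences from the slot mean, which by construction holds 5.02% of all inserts on the low side and 5.02% on the high side. The members had 2 low and 0 high for hnf4, 0 low and 2 high for couptf, 5 low and 3 high for nr2f2 and 2 low and 3 high for tr4, each of 95. The 3 high tr4 inserts were the 3 slots of the site 223 window.

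A total of 7 slots natively carried hnf4 or couptf, and the inserted form did not bring back native activity in most of them. Putting hnf4 into its own slots gave differences from wt of -0.78 in bases 124 to 136 of site 182, -0.52 in bases 115 to 129 of site 223 and -1.84 in bases 82 to 100 of site 223. For couptf these were -0.25 in bases 2 to 20 of site 206, -1.52 in bases 34 to 50 and -2.50 in bases 77 to 92 of site 223, and 0.19 in bases 97 to 121 of site 240. Between 6 and 34 of the 38 other inserts of these slots were more active than the own name. In pool 5, altering the same instances gave differences from native of -0.19, -0.66 and 0.12 for hnf4 and of -0.61, -0.74, -1.62 and -0.13 for couptf, in the same order. In the lxr and rar slots of bases 34 to 50 of site 223 in pool 6, couptf differed from wt by -0.79 and -0.61. The inserted forms need not equal the native bases, and no slot was named after nr2f2 or tr4.

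Inserts were also described by position and slot type. Upstream of bases 68 to 76 (54 slots) the median difference from the slot mean was -0.17 for hnf4, 0.04 for couptf, 0.07 for nr2f2 and -0.35 for tr4, and downstream (41 slots) it was -0.03, -0.09, -0.02 and -0.14. In 37 slots named after a nuclear receptor the medians were -0.03 for hnf4, -0.14 for couptf, 0.09 for nr2f2 and -0.20 for tr4, and in the 58 others -0.13, 0.04, 0.03 and -0.30. These differences were not tested.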

How the data were processed

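The deposited tables hold raw read counts of RNA and plasmid per element, which the authors summed over an element's barcodes, per the series' design text, together with the number of barcodes. Bowtie2 2.1.0 and the build mm9 are named in the submitters' processing notes. The read counter is not given in the sources used here. In pool 5, 101 rows with no element name (3.00% of RNA and 4.90% of plasmid counts) were left out.

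Activity was computed from the counts with a pseudocount of 1 and each library's total, for elements with at least 50 plasmid counts. Differences were averaged within sites and tested by 2-sided sign flips, enumerated exactly up to 16 sites and otherwise with 100000 flips, and by label permutation between sets of sites. P-values were adjusted by Benjamini and Hochberg over all names with at least 6 sites, or all pairs, at 0.05. The tests were checked on simulated data. In pool 5, 32 of 245 sites had a neighbour within 200 bases. Reads carry no molecular identifiers, so intervals and floors cover counting error only. Names described are the 4 members, ppar, pparg and rxr, the 3 names most like each member, and the 3 lowest and 3 highest elements of each. Members and lists were chosen with earlier results of these data known. Other pseudocounts, count minimums, medians, units and left-out sites were tried as alternatives. Python 3.11.15, numpy 2.4.6, pandas 2.3.3 and scipy 1.17.1 were used.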

Additional observations from a re-analysis of the deposited data

How the results depend on the processing

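The fall of hnf4, couptf, nr2f2 and tr4 on alteration kept its direction and its call under each of 10 alternatives, from -1.07 to -0.89 for hnf4, -0.92 to -0.68 for couptf, -0.95 to -0.83 for nr2f2 and -0.72 to -0.53 for tr4. Against name_ctrl over the same sites, hnf4 (-0.69 to -0.22) and couptf (-0.47 to -0.40) missed the threshold throughout. The number of names lower there was 1 as reported, 0 without instances that share counts with another name and 3 with at least 1000 plasmid counts. Over all sites of either kind, medians gave -0.27 for couptf and -0.38 for tr4, both no longer past the threshold, and -0.77 for nr2f2, now past it. Leaving out shared counts gave -0.44 for tr4, no longer past it. The cause was not tested.

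For inserts against the slot mean, tr4 lost its call with medians (-0.27) and with the median of the other inserts (-0.10), while couptf gained one with the latter (0.16) and hnf4 with slots as units (-0.12). Leaving out 1 site at a time gave -0.23 to -0.15 for tr4, -0.22 to -0.073 for hnf4, -0.0042 to 0.10 for couptf and -0.0082 to 0.10 for nr2f2. The tr4 call was lost without site 129, 138, 142, 152, 182, 240, 280, 508, 580 or 699, and hnf4 gained one without site 407 (adjusted p = 0.0474, exact test over 14 sites). Against wt, the same left -0.44 to -0.28 for hnf4, -0.18 to -0.02 for couptf, -0.22 to -0.04 for nr2f2 and -0.45 to -0.24 for tr4, with no call. With slots as units the values were -0.38 for hnf4, -0.21 for couptf, -0.23 for nr2f2 and -0.41 for tr4, all past the threshold. In that setting 25 names in place of 12 were lower. Slots of 1 site share its surroundings and its wt element, so they are not independent units, here or for the hnf4 call above. With medians 3 names in place of 5 were higher. No pair among the 4 members changed its call. The pairs nr2f2 with ppar and tr4 with pparg missed the threshold with medians (adjusted p = 0.0516 for each, exact test over 15 sites). The alternatives with at least 1000 plasmid counts, merged neighbours, sites of both kinds left out, averaged windows and left-out sites were chosen after seeing the data. Differences were paired within sites or slots, except in the comparison over all sites of either kind. No pairing between replicate libraries was possible because each library is a single sample.

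With 1 RNA and 1 plasmid library per pool, variation between cultures was not measured. Elements with few plasmid counts per barcode limit the lowest values.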

Other observations

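Of the 15 native elements of pool 6, 11 had a native element in pool 5 as well. Activity, scaled within each pool, was higher in pool 6 for 10 of these 11, with a median difference of 0.36 and a range from -0.10 at site 580 to 1.13 at site 223. At site 223, which holds 4 of the 7 slots natively named hnf4 or couptf and the tr4 window, the native activity was -0.02 in pool 5 and 1.11 in pool 6. Differences from wt at that site therefore rest on native values that are 1.13 apart. Whether the pools' totals, the cells or the libraries differ was not tested.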
